A study of Mus musculus with 6 samples.

Results

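Guanylate-binding proteins (GBPs) and immunity-related GTPases (IRGs) are 2 families of interferon-induced GTPases, and 10 of their genes are described here in CD11B+ cells of the injured kidney. The members were Gbp2, Gbp3, Gbp5, Gbp6 and Gbp7 of the GBP family and Igtp, Irgm1, Irgm2, Iigp1 and Ifi47 of the IRG family. They were taken from the count table by gene symbol and make up 10 of its 46603 genes. All 10 passed the filter on low counts.

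Both families are induced by interferon-gamma, which acts through the receptor chains Ifngr1 and Ifngr2 and the kinases Jak1 and Jak2. Target genes of this pathway carry the gamma-activated site (GAS) in their promoters, and interferon regulatory factors bind the interferon-stimulated response element (ISRE). The induced GTPases coat vacuoles that hold intracellular pathogens and help to break them open, and GBPs also promote inflammasome activation. In macrophages their transcripts serve as a readout of exposure to interferons.

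The libraries compared 3 PTEC DN RAR mice, which carry Rosa26-LSL-RARaT403X together with PEPCK CRE+, with 3 Cre- controls (PEPCK CRE-), which have the same Rosa26 allele but lack Cre. All were males aged 10 to 12 weeks, and all underwent ischemia-reperfusion injury by clamping of both renal pedicles for 28 minutes, 3 days before the cells were taken, so no uninjured group was included. The allele encodes a dominant negative retinoic acid receptor, and PEPCK-Cre turns it on in proximal tubular epithelial cells (PTECs), whereas the RNA came from cells that bound beads against CD11B, the integrin of monocytes, macrophages, granulocytes and NK cells. The comparison therefore asked how these cells differ when retinoic acid signaling is inhibited in the neighboring tubule.

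Between 29318041 and 46517005 reads per library were counted on genes, and 3 reads corresponded to between 0.0645 and 0.102 CPM, the read count relative to the total of its library, before TMM scaling. The CPM values below are TMM-scaled. Of 15440 genes tested with edgeR, 40.6% had an adjusted p under 0.05, of which 2636 were lower and 3640 higher in PTEC DN RAR mice, and the first principal component separated the genotypes. Itgam, the gene for CD11B itself, was at 1737, 1959 and 1995 CPM in Cre- controls and 1366, 1303 and 980 CPM in PTEC DN RAR mice, a log2 fold change of -0.64 (adjusted p = 0.00818). The labels were otherwise not checked by the targeted receptor, since Rara was read at 33.3 ± 3.72 CPM (SD, n = 3) against 42.0 ± 5.75 CPM, overlapped between the genotypes and cannot be split into its own and transgene reads. The mitochondrial share of counts was 5.04% to 8.77% for Cre- controls, against 10.4% to 12.1% for PTEC DN RAR mice.

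The promoters of most members carry interferon motifs close to the RefSeq start site. They are shown as a feature of the sequences, and whether they bear on the members' levels was not tested. RefSeq promoter windows on GRCm38.p6, from 250 bases before to 50 bases after the start, were matched for 8 members, in 9 windows because Gbp3 had a pair, and were not matched for Gbp6 and Iigp1. An ISRE-type pair of half-sites, spelled GAAA, any 2 bases and GAAA again, or TTTC, any 2 bases and TTTC on the other strand, was found in 7 of the 8, which were Gbp2, Gbp3, Gbp5, Gbp7, Igtp, Irgm1 and Irgm2. The same letters occur in 3.99% of 27025 genes with such windows and in 3.44% of all 32851 windows. A GAS-type sequence, spelled TTCNNNGAA, which is its own reverse complement, was found in Gbp5, Gbp7, Igtp and Irgm2 against 9.55% of all genes and 8.3% of all windows. By window, 7 of the 9 held the ISRE-type pattern and 4 the GAS-type pattern. In the Ifi47 window and in 1 of the pair of Gbp3 windows neither pattern was found. Capitals below mark the bases of either motif, and each stretch is written 5′ to 3′ on the strand of its gene.
Gbp2, chr3:142620589-142620628, plus strand: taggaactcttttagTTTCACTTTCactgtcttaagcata
Gbp3, chr3:142559984-142560029, plus strand: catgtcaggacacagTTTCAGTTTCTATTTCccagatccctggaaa
Gbp5, chr3:142496867-142496905, plus strand: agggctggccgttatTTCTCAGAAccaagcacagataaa
Gbp7, chr3:142530215-142530307, plus strand: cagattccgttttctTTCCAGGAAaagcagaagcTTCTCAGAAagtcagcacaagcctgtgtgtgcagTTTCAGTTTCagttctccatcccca
Igtp, chr11:58199496-58199546, plus strand: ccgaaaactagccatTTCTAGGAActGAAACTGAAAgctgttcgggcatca
Irgm1, chr11:48871428-48871457, minus strand: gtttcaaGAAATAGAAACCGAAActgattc
Irgm2, chr11:58214887-58214937, plus strand: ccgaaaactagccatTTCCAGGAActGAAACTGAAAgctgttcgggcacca

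In Gbp3 and Irgm1 the capitals join ISRE-type matches that overlap. Gbp5 holds its ISRE-type match and another GAS-type match farther upstream, outside the stretch printed. Igtp and Irgm2 carry nearly the same element, with a GAS-type site and, after 2 further bases, ISRE half-sites. Of the 51 bases printed for each, 49 were identical, and the differences were T19C and T49C, with the base of Igtp first and positions counted from 1 at the 5′ end. Over the 220 bases that could be aligned without a gap before both RefSeq starts, 134 were identical (60.9%), against 96.1% in the stretch printed. RefSeq starts can differ from the ends of the GENCODE gene spans given below. The stretches printed for Gbp5, Irgm1 and Irgm2 lie wholly inside those spans. These matches describe letters in the windows and do not show that a factor was bound.

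All 10 members had a negative log2 fold change in PTEC DN RAR mice, and 5 of them passed the test. Gbp7 and Ifi47 fell to about the same degree, Irgm2 and Irgm1 fell somewhat less, and Gbp3 fell least among the 5. For all 5, the highest PTEC DN RAR library was below the lowest Cre- control library. Among all genes tested, 17.1% were called lower, 24.2% had such a separation downwards (29.2% upwards) and 47.3% had a negative log2 fold change. The median log2 fold change was -0.57 over the members and 0.04 over all genes tested, and that of the members was -0.37 without PTEC DN RAR replicate 1, -0.84 without PTEC DN RAR replicate 3 and -0.35 when the libraries were scaled to pan-leukocyte genes in place of TMM. The pan-leukocyte genes were themselves lower with TMM, at a median log2 fold change of -0.20. Of 27 tested, 26 were negative, 8 were called lower (29.6%) and 0 higher. In these bulk libraries, fewer cells that express a gene and less RNA per cell cannot be told apart.

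**Figure D1:**
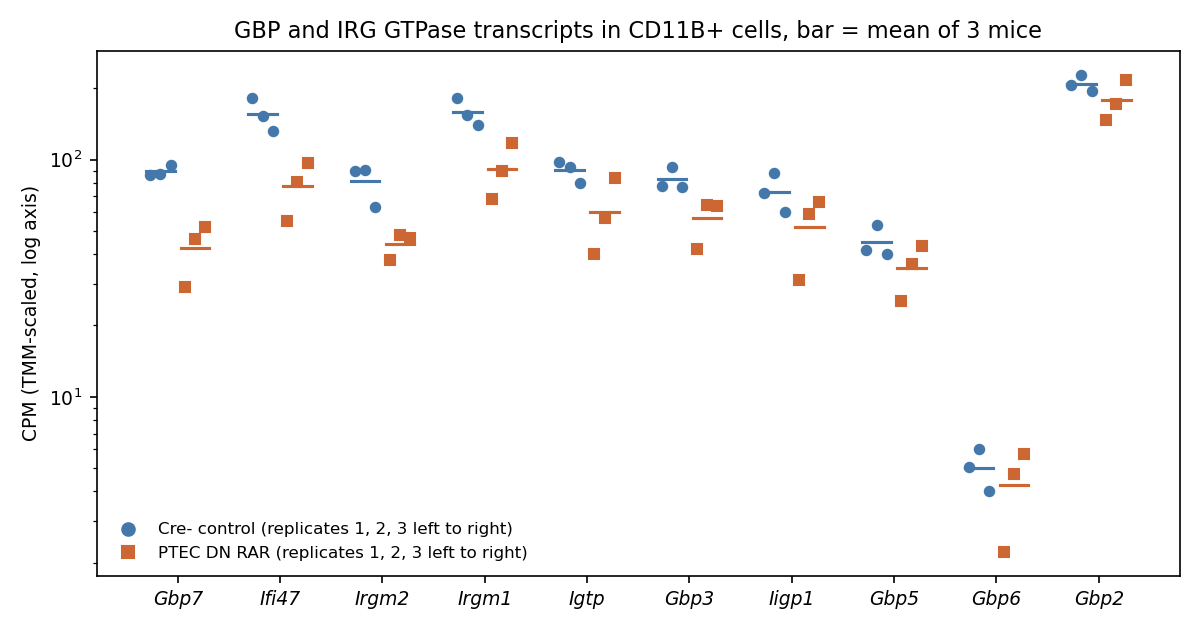
Level of each of the 10 members in every library, as CPM after TMM scaling on a log axis, with circles for the 3 Cre- control mice, squares for the 3 PTEC DN RAR mice and bars for the group means. The groups are apart for Gbp7, Ifi47, Irgm2, Irgm1 and Gbp3 and overlap for the other 5, and the first square is the lowest of the 6 points in every gene.

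Gbp7 is a GBP known for supporting assembly of the phagocyte NADPH oxidase. Its transcript was at 86.5, 87.3 and 95.3 CPM in Cre- controls and at 29.0, 46.2 and 51.9 CPM in PTEC DN RAR mice. The controls lay close together and well above the PTEC DN RAR libraries. The mean was 89.7 ± 4.88 CPM (SD, n = 3) in the former and 42.4 ± 11.9 CPM in the latter, with a log2 fold change of -1.08 ± 0.19 (SE, adjusted p = 0.00288). Gbp3 lies next to it in the gene cluster of chromosome 3. Its levels were 77.6, 93.2 and 77.0 CPM in Cre- controls and 42.0, 64.2 and 63.6 CPM in PTEC DN RAR mice, with a narrower gap between the genotypes. The log2 fold change was -0.54 ± 0.16 (adjusted p = 0.0277).

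Gbp2, a GBP that is recruited to pathogen vacuoles, had the highest level per length of the members. It was at 206, 228 and 194 CPM in Cre- controls and at 147, 171 and 217 CPM in PTEC DN RAR mice. The highest PTEC DN RAR library lay above 2 of the 3 controls, and the log2 fold change of -0.23 ± 0.14 did not pass the test (adjusted p = 0.223). Gbp5, which promotes assembly of the NLRP3 inflammasome, was at 41.6, 53.0 and 39.9 CPM in Cre- controls and at 25.4, 36.2 and 43.4 CPM in PTEC DN RAR mice. Again the third PTEC DN RAR library reached into the range of the controls, and the log2 fold change was -0.35 ± 0.19 (adjusted p = 0.169). Gbp6, of the cluster on chromosome 5, was counted at 5.07, 6.01 and 3.99 CPM against 2.22, 4.74 and 5.76 CPM. The groups overlapped, with a log2 fold change of -0.24 ± 0.33 (adjusted p = 0.583).

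Among the IRGs, Irgm1, Irgm2 and Igtp (also called Irgm3) form the regulatory group, which guards the cell's own membranes against the effector IRGs. Irgm1 was at 182, 154 and 140 CPM in Cre- controls and 68.0, 89.6 and 117 CPM in PTEC DN RAR mice, and Irgm2 at 89.4, 90.7 and 63.1 CPM against 37.8, 48.2 and 46.6 CPM. Neither gene overlapped between the genotypes. Irgm1 fell by 0.79 ± 0.19 on the log2 scale (adjusted p = 0.0104) and Irgm2 by 0.88 ± 0.15 (adjusted p = 0.00312). Igtp was at 97.4, 93.1 and 79.99 CPM against 40.0, 56.6 and 83.5 CPM. Here the third PTEC DN RAR library was higher than the third control, and the log2 fold change of -0.59 ± 0.23 missed the threshold (adjusted p = 0.0689).

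Ifi47 (Irgd) and Iigp1 (Irga6) belong to the effector group of IRGs, which load onto vacuoles. Ifi47 was at 183, 153 and 132 CPM in Cre- controls and at 55.2, 80.4 and 96.6 CPM in PTEC DN RAR mice. All controls were higher than all PTEC DN RAR libraries, with a log2 fold change of -1.01 ± 0.20 (adjusted p = 0.0048). Iigp1 was at 72.3, 87.8 and 59.9 CPM against 31.2, 59.0 and 66.6 CPM. Its groups overlapped, and the log2 fold change was -0.49 ± 0.26 (adjusted p = 0.159). Of the 5 GBP members 2 were called lower, with a median log2 fold change of -0.35, and of the 5 IRG members 3 were called lower, with a median of -0.79.

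The calls depended on single libraries and on scaling. Without PTEC DN RAR replicate 3, 8 members were called lower, Igtp at a log2 fold change of -0.94, Gbp5 at -0.58 and Gbp2 at -0.44 in addition, whereas without Cre- control replicate 2 only 4 were called, since Gbp3 no longer passed (-0.49, adjusted p = 0.0685) and without PTEC DN RAR replicate 1 Gbp6 turned to 0.063 (adjusted p = 0.853). Without that library Igtp was at -0.37, Iigp1 at -0.23, Gbp5 at -0.17 and Gbp2 at -0.11, and the same 5 members were called. Under the scaling to 28 pan-leukocyte genes, the median of all genes moved to 0.22, with 758 genes called lower and 4573 higher. There, Gbp7, Ifi47 and Irgm2 stayed called. Irgm1 (-0.58, adjusted p = 0.0635) and Gbp3 (-0.34, adjusted p = 0.19) lost the call, although all 10 members kept a negative value.

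The members differed in how firmly their reads can be assigned. Reads that aligned to several places or overlapped several genes were not counted, and between 42.9% and 47.8% of alignments per library were not unique. For Gbp6, 70.7% of all 50-base stretches of its exons also occur in other genes, chiefly Gbp10, Gbp4 and the overlapping Gm43302, so its low count is uncertain. For Gbp7 the share was 12.7%, for Igtp 11.8%, for Irgm2 7.77%, and for the other 6 members between 0.31% and 3.75%. Igtp and Irgm2 overlap on the plus strand of chromosome 11, at 58199556-58207591 and 58199618-58222782 on GRCm38, and share 8.01% of the exon bases of Igtp and 4.39% of those of Irgm2. Gbp5 (142493978-142522344), Gbp7 (142530342-142550149), Gbp3 (142560026-142573209) and Gbp2 (142620602-142638008) follow one another on the plus strand of chromosome 3, with Gbp2b between the last pair. Irgm1 (48861968-48871683, minus strand) and Ifi47 (49076587-49096974, plus strand) lie together on chromosome 11, and Gbp6 lies on the minus strand of chromosome 5 at 105270702-105293698. A second line with the symbol Gbp6 in the table had 0 reads in all 6 libraries and corresponds to Gm43302 in GENCODE M21.

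Per kilobase of merged exons, Gbp2 had the highest mean level in Cre- controls at 83.2 CPM per kb. It was followed by Ifi47 at 63.1, Igtp at 44.6, Irgm1 at 27.3, Gbp3 at 25.3, Irgm2 at 22.0, Gbp7 at 15.98, Iigp1 at 12.6, Gbp5 at 6.75 and Gbp6 at 0.844 CPM per kb. Neighbors in this order did not overlap across the 3 controls, other than Irgm1 with Gbp3 and Gbp3 with Irgm2. Some gaps were narrow: the lowest Irgm2 value was 17.1 against a highest Gbp7 value of 16.98 CPM per kb. The lowest Gbp7 value was 15.41 against a highest Iigp1 value of 15.08 CPM per kb. Levels were not corrected for reads lost to shared sequence, so this order is approximate. In PTEC DN RAR mice the levels were closer together below Gbp2. Gbp2 was at 70.9 CPM per kb and Ifi47 at 31.3 CPM per kb, a gap without overlap, while Ifi47 overlapped with Igtp at 29.7 CPM per kb. Along the control order, only Gbp2 over Ifi47, Irgm2 over Gbp7 and Gbp5 over Gbp6 were apart in PTEC DN RAR mice.

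The members varied together across the libraries. Summed over the 10 genes, they took 1041, 1047 and 885 CPM in Cre- controls and 477, 656 and 792 CPM in PTEC DN RAR mice, so every PTEC DN RAR library lay below every control. Their mean log2 CPM was 6.24, 6.32 and 6.02 in controls, as against 5.07, 5.65 and 5.89 in PTEC DN RAR mice (6.19 ± 0.16 and 5.54 ± 0.42, SD). PTEC DN RAR replicate 1 was the lowest of the 6 libraries for all 10 members, and the spread among PTEC DN RAR mice was wider than among controls. After removal of each genotype's mean, the 45 pairs of members had correlations between 0.364 and 0.997 over the 6 libraries, with a median of 0.839, and 28 pairs were above 0.8. These points share their library, its depth and its mixture of cells, and Irgm2 was 1 of the genes in each of the 4 lowest. PTEC DN RAR replicate 1 had the most negative deviation in every member but Irgm2, so this library weighs on the correlations. How often all genes, or pairs of them, give such values was not computed, so these counts are not shown to be particular to the members.

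**Figure D2:**
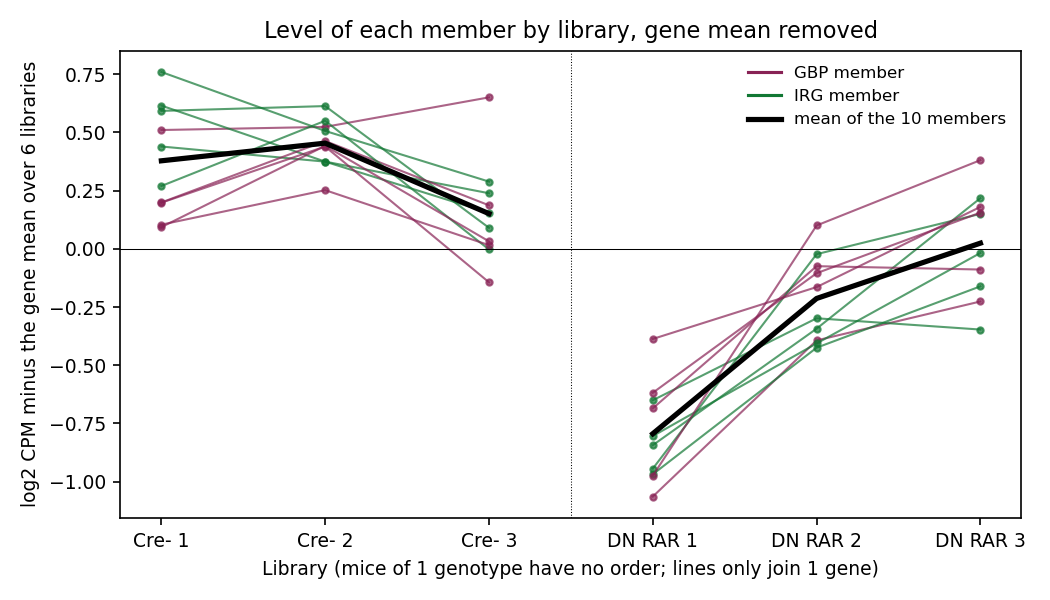
Log2 CPM of each member minus its mean over the 6 libraries, by library, with GBP members in purple, IRG members in green and the mean of the 10 members in black. The black line lies between 0.15 and 0.45 in Cre- controls and between -0.79 and 0.02 in PTEC DN RAR mice, and mice of 1 genotype have no order.

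Ratios between members were also read within each library. There, the log2 ratio of Gbp7 to Gbp2 was -1.25, -1.39 and -1.02 for Cre- controls, against -2.34, -1.89 and -2.07 in PTEC DN RAR mice, and scaling between libraries does not enter such a ratio. All PTEC DN RAR values were lower, with a difference of means of -0.88. The ratio of Gbp7 to Gbp5 moved by -0.74 and that of Ifi47 to Gbp2 by -0.79, again without overlap. For the overlapping genes Irgm2 and Igtp the ratio was -0.12, -0.04 and -0.34 in controls, as against -0.08, -0.23 and -0.84 in PTEC DN RAR mice, which overlapped. These pairs were chosen after their values were seen and are given with no test.

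The genes whose 6 values followed the mean profile of the members most closely were sought among 8983 genes with a mean of at least 10 CPM, by the root mean square difference of log2 values with each gene's mean removed. The closest was Gbp9, another GBP, at 0.06, followed by Parp9, Tgtp2, Samd9l, Aim1 (not the inflammasome gene Aim2), Slfn8, Ifih1 and Lacc1, the last at 0.10. The mean profile itself had a root mean square of 0.418. Parp9 and Ifih1, an ADP-ribosyltransferase family member and a sensor of double-stranded RNA, are known interferon-induced genes, and Tgtp2 is an IRG. The mean profile is itself lower in PTEC DN RAR mice, so the choice fixed the direction of these genes, and neither their order nor their direction carries a test.

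Of 19 other genes of the GBP and IRG families, 16 passed the filter, and Gbp10, Gbp11 and Irgc1 did not. In PTEC DN RAR mice 5 of the 16 were lower (31.2%) and 1 was higher (6.25%), beside 17.1% and 23.6% of all genes, and their median log2 fold change was -0.26. Gm12250 (Irgb10), an IRG that acts on bacterial membranes, fell by 1.06 on the log2 scale, from 49.6, 52.0 and 39.3 CPM to 17.6, 25.8 and 24.1 CPM (adjusted p = 0.00164). Gbp9 fell by 0.66, Gm5431 by 1.14, Tgtp2 by 0.73 and Gvin1, a very large inducible GTPase, by 0.93. The last 3 share sequence with other genes, since 37.3%, 86.6% and 99.2% of their 50-base exon stretches recur elsewhere, and reads from such stretches can go uncounted. The 1 called higher was Gm4841, with 4, 7 and 5 reads in Cre- controls against 20, 27 and 36 reads in PTEC DN RAR mice, which passed the filter only through the latter group and therefore had to differ. With at least 10 counts in every library, 0 of these genes were higher. Gbp4, Gbp8, Gbp2b, Tgtp1, Gm12185, Gm4951, F830016B08Rik, Irgq, 9930111J21Rik1 and 9930111J21Rik2 were not called, with log2 fold changes between -0.40 and 0.38. Without PTEC DN RAR replicate 1, only 3 of these other family genes were called lower and 2 were higher, and under pan-leukocyte scaling 2 were lower and 2 were higher.

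**Figure D3:**
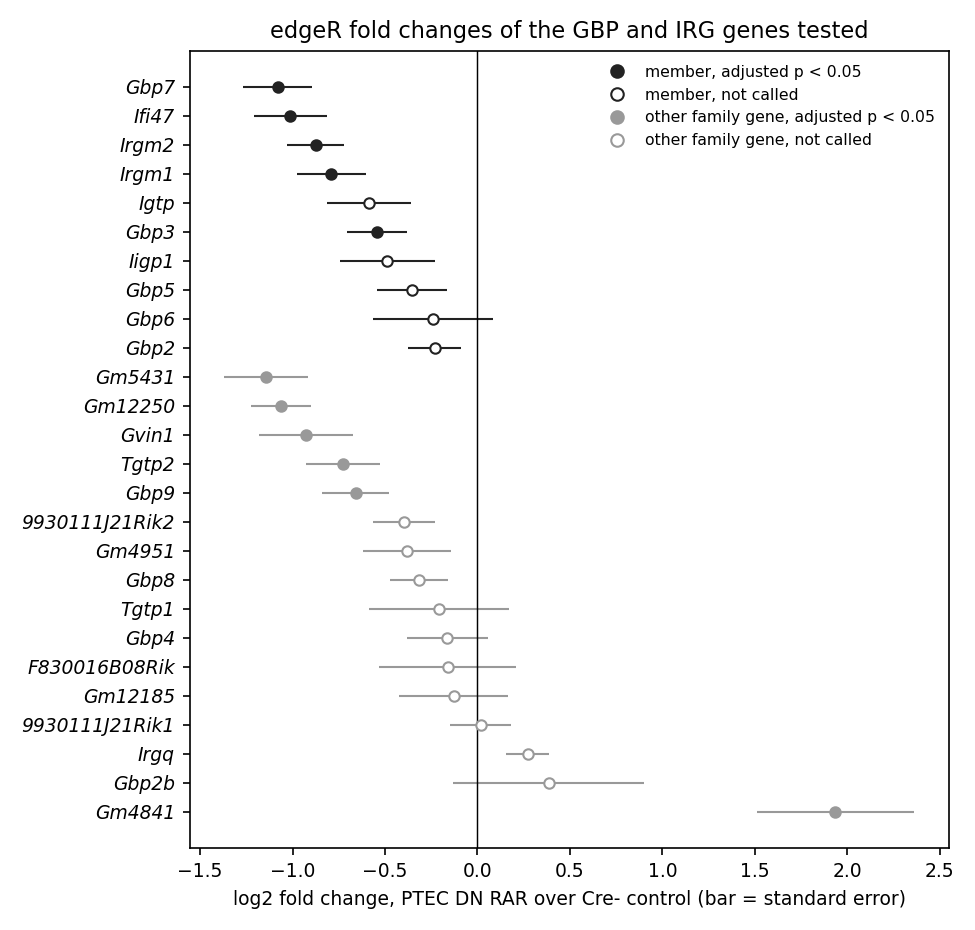
Log2 fold change in PTEC DN RAR over Cre- control for the 10 members (black) and the 16 other GBP and IRG genes tested (gray), with bars for the standard error of the edgeR fit and filled points for an adjusted p under 0.05. Members range from -1.08 (Gbp7) to -0.23 (Gbp2), and the other genes from -1.14 (Gm5431) to 1.94 (Gm4841).

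The ligand of the pathway was barely read in these cells. Ifng had 1, 1 and 1 reads in Cre- controls and 2, 2 and 0 reads in PTEC DN RAR mice, all under 3 reads, so its level could not be compared at this depth. Among 19 genes of interferon-gamma signaling that passed the filter, 6 were lower (31.6%) and 2 were higher (10.5%), beside 17.1% and 23.6% of all genes, with a median log2 fold change of -0.20. Under pan-leukocyte scaling 1 of them was lower and 3 were higher. The receptor chains Ifngr1 (369, 355 and 389 CPM against 362, 359 and 317 CPM) and Ifngr2 (173, 155 and 164 CPM against 153, 138.5 and 131 CPM) were not called, at -0.10 (adjusted p = 0.404) and -0.22 (adjusted p = 0.0845). The kinases Jak1 and Jak2 just passed the threshold, at -0.27 each (adjusted p = 0.0405 and 0.0424).

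Most transcription factors of the pathway were not called. Irf1, a factor that interferon-gamma induces, was at 149, 167 and 139.5 CPM against 124, 125 and 147 CPM (-0.20, adjusted p = 0.159), and Irf8 (-0.07), Batf2 (-0.17) and Nlrc5 (-0.03) were not called either. Irf9, part of a complex used by type I interferon, fell by 0.41 (adjusted p = 0.0079). The inhibitors Ptpn2 and Pias1 fell by 0.47 and 0.40, while Socs1, also an inhibitor, was not called (-0.37, adjusted p = 0.316). Il18, a cytokine that drives interferon-gamma production, fell by 0.74 (adjusted p = 0.00237), whereas Il18r1, at no more than 1.49 CPM, rose by 0.88 (adjusted p = 0.029). Only 1 gene of this list was higher without Cre- control replicate 2, Cre- control replicate 3, PTEC DN RAR replicate 2 or PTEC DN RAR replicate 3 in turn.

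Ciita, the interferon-gamma induced master factor of MHC class II genes, was higher in PTEC DN RAR mice. It was at 184, 228 and 181 CPM in Cre- controls and at 358, 361 and 290 CPM in PTEC DN RAR mice. All PTEC DN RAR libraries were higher, with a log2 fold change of 0.77 ± 0.13 (adjusted p = 0.0023). Within libraries the log2 ratio of Gbp7 to Ciita was -1.09, -1.38 and -0.92 in controls, as against -3.62, -2.97 and -2.48 in PTEC DN RAR mice. This pair too was chosen after its values were seen.

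Other genes known to respond to interferon-gamma were called in both directions. Of 35 that passed the filter, which included Irf1, Irf8, Socs1, Nlrc5 and Ciita from above, 10 were lower and 10 were higher, that is 28.6% in each direction, beside 17.1% of all genes lower and 23.6% higher, so the share higher was near that of all genes. Under pan-leukocyte scaling 3 were lower and 10 were higher. Among those higher were the MHC class II genes H2-Eb1 (1.10, adjusted p = 0.00399) and H2-Ab1 (0.98, adjusted p = 0.00435) and the invariant chain Cd74, which rose from 10580, 10820 and 8044 CPM to 19510, 23760 and 15530 CPM. Among those lower were the Fc receptor gene Fcgr1 (-0.83, adjusted p = 0.00243), Cd274, which encodes PD-L1 (-0.48, adjusted p = 0.00258), and the ubiquitin ligase gene Trim21 (-0.59, adjusted p = 0.00303). The median of the list was -0.17.

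Genes that are mainly known from type I interferon responses were lower or not called. Of 24 such genes, 13 were lower in the edgeR test (54.2%, beside 17.1% of all genes). All 24 had a negative log2 fold change, beside 47.3% of all genes, and the median of the list was -0.72. None was therefore higher at an unadjusted p under 0.05 either, and 0 were higher with DESeq2 or voom. Rtp4 was at 164, 130 and 116 CPM in Cre- controls and at 44.7, 62.8 and 80.3 CPM in PTEC DN RAR mice (-1.13, adjusted p = 0.00372). Ddx58, which encodes the RNA sensor RIG-I, fell by 0.88, and Isg15, a ubiquitin-like modifier, by 1.18. As among the members, the first PTEC DN RAR library was the lowest of the 6 in each of these 3 genes. The summed level of the list was between 2831 and 4527 CPM in controls and between 1503 and 2808 CPM in PTEC DN RAR mice. The number lower was 6 without Cre- control replicate 1, 7 without Cre- control replicate 2, 7 without PTEC DN RAR replicate 1 and 8 without PTEC DN RAR replicate 2, and it was 4 under pan-leukocyte scaling.

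**Figure D4:**
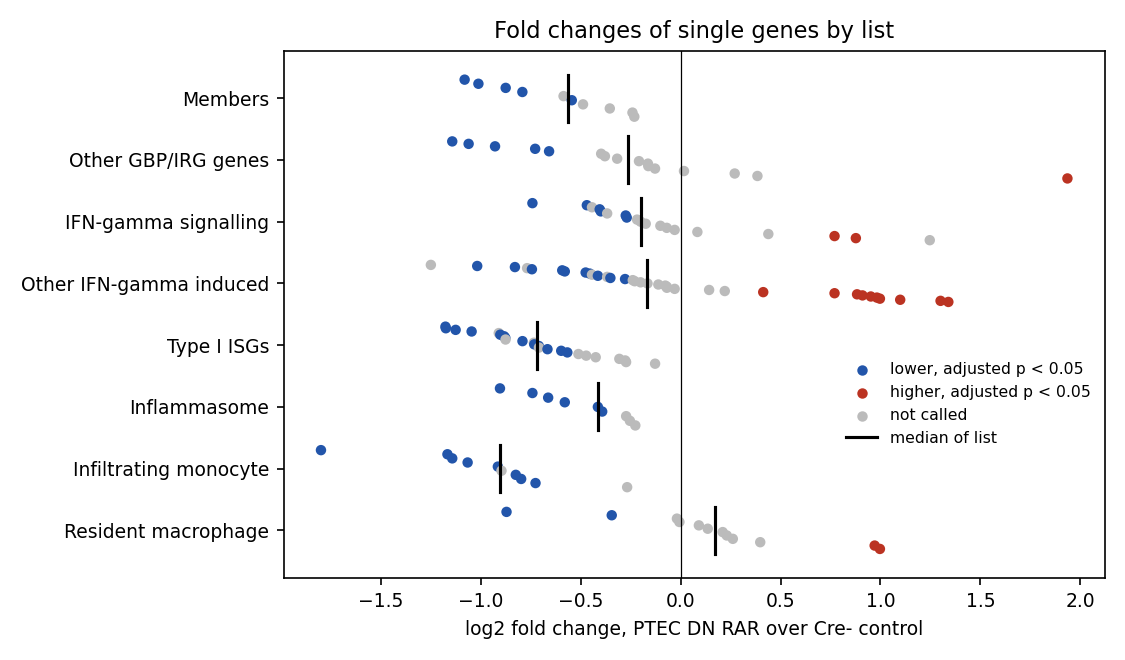
Log2 fold change in PTEC DN RAR over Cre- control for single genes of 8 lists, 1 point per gene, colored by the edgeR call, with a black bar at the median of each list. The medians are -0.57 for the members, -0.26 for the other GBP and IRG genes, -0.72 for type I interferon-stimulated genes and -0.91 for infiltrating monocyte markers, and interferon-gamma induced genes spread to both sides of 0.

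Markers of several cell types moved with the genotype, beside the members. Of 10 infiltrating monocyte markers 8 were lower (80%, beside 17.1% of all genes), such as the chemokine receptor gene Ccr2 (-0.73, adjusted p = 0.000691) and F10. Their summed level was between 3374 and 3871 CPM in Cre- controls and between 1659 and 1683 CPM in PTEC DN RAR mice, with none of the 10 at 0. Unlike the members, this sum was nearly equal in the 3 PTEC DN RAR libraries. Of 11 neutrophil markers 6 were lower (54.55%), with sums of 624 to 1105 CPM against 338 to 490 CPM. Of 12 resident macrophage markers 2 were lower (Trem2 and Mertk) and 2 were higher (Cd81 and Cd74), 16.7% each way and not above the 17.1% and 23.6% of all genes, with 6 higher under pan-leukocyte scaling, and their sum, most of it Apoe and Cd74, was between 30030 and 35730 CPM in controls and between 37390 and 51280 CPM in PTEC DN RAR mice. Markers of endothelium and tubule were higher in PTEC DN RAR mice, where 23.6% of all genes were higher. All 13 endothelial markers were higher (165 to 226 CPM against 414 to 492 CPM), as were all 16 proximal tubule markers, led by Aqp1 and Slc22a8 (1111 to 1343 CPM against 2914 to 4473 CPM), 7 of 8 markers of the thick ascending limb and distal tubule (1237 to 1755 CPM against 4337 to 8288 CPM) and 4 of 6 stromal markers tested. The stromal count was 0 without Cre- control replicate 3, 1 or 2 without any 1 of Cre- control replicates 1 and 2 and PTEC DN RAR replicates 1 and 2, and 6 without PTEC DN RAR replicate 3, and 1 resident macrophage marker was lower without any 1 of Cre- control replicates 1 and 3 and PTEC DN RAR replicates 1 and 3. The part of these cell types, of the fall in Itgam and of the higher mitochondrial share in the members' result was not tested.

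The main cellular sources of interferon-gamma were read at low levels. Of 12 NK cell markers 9 passed the filter, 1 was lower (Klrd1, -1.16) and 1 was higher (Ccl5, 1.05), and their summed level was between 21.6 and 36.9 CPM in Cre- controls and between 29.5 and 43.2 CPM in PTEC DN RAR mice. Ncr1, which marks NK cells, was at no more than 0.765 CPM in any library, and Klra8 and Eomes were at 0 in PTEC DN RAR replicate 2. Of 12 T cell markers 8 passed, 3 were higher (Cd4, Cd5 and Trac) and 1 was lower (Cd28), with a sum between 49.6 and 76.8 CPM in controls and between 89.1 and 112.5 CPM in PTEC DN RAR mice, most of it Cd4. Without PTEC DN RAR replicate 3, 6 T cell markers were higher, and without PTEC DN RAR replicate 1, 3 NK cell markers were lower. Of 6 B cell markers tested 2 were higher, but 0 without Cre- control replicate 3, PTEC DN RAR replicate 1 or PTEC DN RAR replicate 2 in turn, 1 without Cre- control replicate 1 and 6 without PTEC DN RAR replicate 3. Of 9 dendritic cell markers 4 were higher, but 2 without Cre- control replicate 3, and 1 was lower. Over all genes 17.1% were lower and 23.6% higher. The NK cell shares, 11.1% each way, were below these. The shares lower and higher were 12.5% and 37.5% for T cell, 0% and 33.3% for B cell and 11.1% and 44.4% for dendritic cell markers.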

How the data were processed

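The authors sequenced polyA RNA of CD11B+ kidney cells from 6 mice, 1 library each, with an RNA integrity number above 7.9. The authors deposited raw read counts per Ensembl gene, without normalization. The notes of the submitters name GRCm38, STAR 2.5.0a, HTSeq 0.6.1, edgeR and limma, without their roles. The table held 46612 lines, of which 9 repeated one of 8 identifiers and were dropped, and 27 symbols turned into dates were restored from the identifiers. Samples were grouped by the genotype in the labels, and p-values measure the spread between these libraries.

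After filterByExpr and TMM scaling, the quasi-likelihood test of edgeR 4.0.16 in R 4.3.3 was run on the counts, and p-values were adjusted by Benjamini-Hochberg across the 15440 genes tested. Standard errors are the log2 fold change divided by the square root of F. CPM values are TMM-scaled, and log2 CPM used a prior count of 2. Alternatives were DESeq2 1.42.0, limma 3.58.1 (voom), DESeq2 size factors, library size, pan-leukocyte scaling, no filter, at least 10 counts in every library, a prior count of 0.25, the replicate block and leaving out each library. The edgeR script was tested on simulated counts. Gene models were GENCODE M21, and promoter windows came from RefSeq. Figures were drawn with matplotlib 3.10.9.

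The members and gene lists were chosen with earlier results of these data known. Named genes were the members, the other family genes, the signaling genes, the 8 closest profiles, and in each other list up to 3 lower and 3 higher with the smallest p and the gene with the highest mean. Acod1 was matched to its older symbol in the table. Protein sequences were not analysed here, and a few genes of the lists are not reported here by name.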

Additional observations from a re-analysis of the deposited data

How the results depend on the processing

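The 10 members' log2 fold changes were recomputed under 14 alternatives, giving 140 values, of which 131 kept their direction and their side of the threshold. Of the rest, 3 lost the call, 5 gained it (Igtp also with DESeq2, -0.62, and without a filter, -0.61) and 1 reversed (Gbp6, 0.063, without PTEC DN RAR replicate 1, its range over the left-out libraries being -0.57 to 0.063). The cause was not tested. Leaving out 1 library gave 4 to 8 members lower and, for the other lists, 3 to 6 other GBP and IRG genes lower and 1 to 2 higher, 1 to 2 interferon-gamma signaling genes higher, 6 to 18 type I interferon-stimulated genes lower, 3 to 5 autophagy genes lower and 1 to 2 higher, 1 to 3 NK cell markers lower, 2 to 6 T cell markers higher, 0 to 6 B cell markers higher, 2 to 4 dendritic cell markers higher, 1 to 2 resident macrophage markers lower and 0 to 6 stromal markers higher. Under pan-leukocyte scaling the numbers lower were 758 over all genes, 3 members, 2 other GBP and IRG genes (2 higher), 1 interferon-gamma signaling gene, 3 other interferon-gamma induced genes, 4 type I interferon-stimulated genes, 0 autophagy genes, 1 resident macrophage marker (6 higher) and 0 dendritic cell markers, and 5 B cell markers were higher. The number of B cell markers higher was 4 with DESeq2, 1 with voom, 1 with DESeq2 size factors and 5 without a filter, and voom called 2 stromal markers higher. Without a filter 1 interferon-gamma signaling gene was higher, and with at least 10 counts in every library 0 other GBP and IRG genes and 1 T cell marker were higher. Counts at low CPM are limited by depth, as for Ifng, and the test of Gbp6 by its shared sequence.

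The labels do not say whether the replicate numbers pair the mice. Deviations of same-numbered libraries correlated at -0.015, 0.211 and 0.029, and only the libraries numbered 2 correlated best with their own number. Such values cannot decide whether mice were paired. With the replicate block the median of the members was -0.61 and the same number of members, 5, was lower, while 1 interferon-gamma signaling gene and 4 B cell markers were higher, and 7 type I interferon-stimulated genes and 1 resident macrophage marker were lower.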

Other observations

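GBPs and IRGs act together with the LC3 conjugation machinery and with inflammasomes, and genes of both were read. Of 9 inflammasome genes 6 were lower in PTEC DN RAR mice in the edgeR test (66.7%, beside 17.1% of all genes), and 4 under pan-leukocyte scaling. All 9 had a negative log2 fold change, with a median of -0.41. Thus 0 were higher with DESeq2 or voom or at an unadjusted p under 0.05. Nlrp3, a sensor of the NLRP3 inflammasome, was at 163, 162 and 180.5 CPM in Cre- controls and at 94.8, 84.9 and 90.4 CPM in PTEC DN RAR mice (-0.90, adjusted p = 0.000284), and the 3 PTEC DN RAR libraries were alike, unlike those of the members. Il1b, a cytokine that inflammasomes activate, fell by 0.66 and Casp1 by 0.58.

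Of 14 autophagy and LC3 conjugation genes 5 were lower and 2 were higher (35.7% and 14.3%, beside 17.1% and 23.6% of all genes), and under pan-leukocyte scaling 0 were lower and 2 were higher. Gabarapl1, a ubiquitin-like protein of the LC3 family, rose from 140, 101 and 110 CPM to 254, 236 and 319 CPM (1.20, adjusted p = 0.000759), and Map1lc3a rose by 0.69. Atg7 and Atg3, enzymes that conjugate LC3 to lipids, were called lower with TMM (-0.33 each), and Gabarap was not called (-0.29, adjusted p = 0.0842). The number lower was 3 (and 1 higher) without Cre- control replicate 3 and 3 without PTEC DN RAR replicate 2.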
